A study of Mus musculus with 20 samples.

Results

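Hepatic stellate cells are the vitamin A storing cells that lie between the sinusoidal endothelium and the hepatocytes. In a healthy liver they are quiescent and keep retinyl esters in lipid droplets. On injury they can turn into contractile, matrix-producing myofibroblasts, a change known as activation that is driven in large part by TGFβ and by platelet-derived growth factor acting on its receptor PDGFRβ. The genes described here are 10 markers of these cells, taken by their symbols from a table of raw counts for 48440 genes in liver RNA. Lrat, Reln, Des, Dcn and Ecm1 mark mainly the quiescent cell. Acta2, Timp1, Lox and Tgfb1 are linked to activation. Pdgfrb is present in quiescent cells and more abundant in activated ones, so it was placed on neither side. None of these genes is made by stellate cells alone, and Ecm1 and Tgfb1 have wide expression.

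The study asked whether an antibody that neutralizes acyl-CoA-binding protein (ACBP, the product of Dbi) counters the effects of corticosterone (CORT), the main glucocorticoid of mice, whose chronic excess models Cushing's syndrome. Female wild-type C57BL/6 mice, 8 weeks old, were given CORT or its vehicle for 5 weeks and were injected with a monoclonal antibody to ACBP (αACBP) or with an IgG2a isotype antibody. The 20 livers form 4 groups of 5, Isotype + Vehicle and Isotype + CORT on the isotype side and αACBP + Vehicle and αACBP + CORT on the antibody side, and each liver is a separate mouse. The labels name no transgene and no fibrosis-inducing agent, and every mouse received an antibody.

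Between 14934926 and 20299999 counts fell on genes in each liver, so that 3 counts, used here as a floor, were at most 0.205 CPM, the unit of count scaled to library size that is used throughout. The floor covers counting error only. Hepatocyte markers summed to between 36340 and 133700 CPM, as the tissue label requires, and stellate cell genes made up a small part of the RNA. In whole liver, fewer cells of a type and less RNA per cell cannot be told apart. The base composition of the counts differed between the antibodies. Over 15804 genes, the correlation of a liver's centred log2 CPM with the GC content of the genes lay between -0.136 and -0.00767 in the 10 isotype livers and between 0.027 and 0.138 in the 10 αACBP livers. The sources used here do not say whether the libraries of each antibody were prepared together, so the antibody and a difference in preparation cannot be told apart in any comparison of the antibodies. For Lrat, Dcn, Pdgfrb and the list genes Csf1r, Itgal, Aldh1a1 and Loxl4, values between the antibodies are also given from a fit with a GC correction, whereas list counts and medians are uncorrected.

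The members differed widely in level. Exon length was the union of all annotated exons of a gene, such as 13033 bases for Dcn and 23738 for Reln, and the order below depends on this choice. Per kilobase of exon, Ecm1, which encodes a secreted matrix protein, led with a mean of 63.1 CPM per kb and lay above every other member in 20 of 20 livers. Dcn, the collagen-binding proteoglycan decorin, followed at 5.86 CPM per kb and exceeded the next gene in 19 of 20 livers. Tgfb1 (2.89), Lrat (2.23), Acta2 (2.19), Des (1.94), Pdgfrb (1.63) and Reln (1.51), all in CPM per kb, formed a middle range. Neighbours in that range did not separate, since each exceeded the next in only 10 to 13 of 20 livers. Reln exceeded Timp1 in 20 of 20 livers, and Timp1 (0.212 CPM per kb) and Lox (0.0925 CPM per kb) closed the order near the floor.

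**Figure D1:**
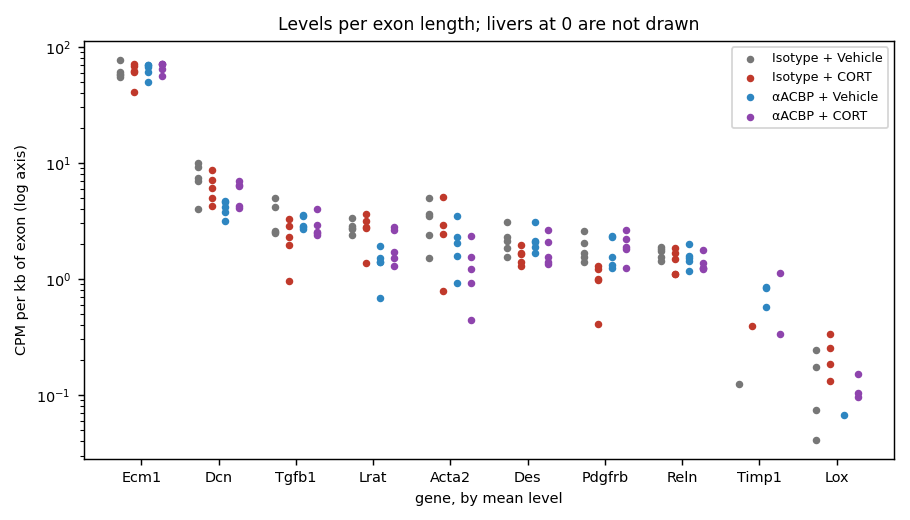
Level of the 10 stellate cell genes in each liver, in CPM per kilobase of exon on a log axis, ordered by mean and coloured by group. Ecm1 stood above the other genes at a mean of 63.1, 6 genes shared a range from 1.51 to 2.89, and Timp1 and Lox were lowest, with livers at 0 not drawn.

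Of the quiescent markers, Lrat encodes lecithin retinol acyltransferase, the enzyme that makes retinyl esters for storage. It lies at chr3:82799886-82811288 on the minus strand of GRCm39 in the GENCODE M39 annotation, with 5359 bases of exon, of which 8.36% lie opposite an exon of the antisense gene Rbm46os. Lrat was the member that passed both limits of the test in a comparison and Acta2, smooth muscle α-actin, is the defining gene of the activated state, so the 250 bases before the RefSeq start of both are shown, from the GRCm38.p6 build, 5′ to 3′ on the strand of the gene. Capitals mark matches on either strand to AGAACA, the half-site of the glucocorticoid receptor, to GGGCGG, the Sp1 motif, and to CAGAC, the Smad motif. Lrat is at chr3:82903975-82904224 and Acta2 at chr19:34255374-34255623, both on the minus strand.
Lrat: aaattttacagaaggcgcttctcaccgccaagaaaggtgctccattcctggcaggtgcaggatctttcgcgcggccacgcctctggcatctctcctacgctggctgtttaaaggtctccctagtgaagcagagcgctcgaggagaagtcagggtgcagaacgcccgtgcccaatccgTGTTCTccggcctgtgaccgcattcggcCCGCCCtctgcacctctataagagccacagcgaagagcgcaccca
Acta2: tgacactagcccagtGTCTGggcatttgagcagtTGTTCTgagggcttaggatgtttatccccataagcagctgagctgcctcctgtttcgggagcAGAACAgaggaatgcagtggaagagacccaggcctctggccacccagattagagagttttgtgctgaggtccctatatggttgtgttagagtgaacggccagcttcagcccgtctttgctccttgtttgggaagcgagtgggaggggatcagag

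Lrat held 1 AGAACA match, at bases 73 to 68 before the start, and 1 GGGCGG match at bases 45 to 40. Acta2 held 2 AGAACA matches, at bases 216 to 211 and 154 to 149, and 1 CAGAC match at bases 235 to 231. Over 32851 mouse promoters of the same length, AGAACA was found in 16.1%, GGGCGG in 32.7% and CAGAC in 42.2%, so these letters are common. The full palindromic motif of the glucocorticoid receptor was found in 0.00913% of promoters and in none of the 7 members with a promoter entry. Matches to the AP-1 motif TGANTCA (6.75% of promoters), to TATAAA (12.4%) and to a strict CArG box (1.47%) were looked for as well. The strict box was CCWWWWWWGG, with W for A or T. Among the members with a promoter entry Ecm1 held the first and the second. Stretches with another base inside the box, such as ccctatatgg in the Acta2 sequence, were not counted.

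CORT under the isotype antibody was the first comparison. It asks what CORT alone does to these genes. No member passed both limits, an adjusted p of at most 0.05 and a log2 fold change of 1 or more in either direction, in edgeR's quasi-likelihood test with Benjamini-Hochberg adjustment over the 16071 genes tested, of which 1.94% passed both. DESeq2's Wald test and limma voom also called 0 of 10. All 10 members were tested, 8 were lower, as 49.8% of all genes were, and 2 were higher, and their median log2 fold change was -0.25, beside 0.00 over all genes. At an unadjusted p of 0.05, 2 members, Pdgfrb and Tgfb1, fell below the limit, where 15.6% of all genes did.

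Pdgfrb, the receptor through which platelet-derived growth factor stimulates stellate cells, had the smallest p of the members here. Its levels were 16.4, 11.3, 12.6, 20.9 and 13.4 CPM with Isotype + Vehicle and 7.87, 10.5, 3.31, 9.78 and 8.06 CPM with Isotype + CORT. Every CORT liver lay below every vehicle liver, a separation in this direction found for 3.02% of all genes. The means were 14.9 ± 3.81 and 7.89 ± 2.79 CPM (SD, n = 5), with a log2 fold change of -0.92 (SE 0.28, 95% interval -1.49 to -0.35, adjusted p = 0.0664 in edgeR's quasi-likelihood test). DESeq2's Wald test gave -0.92 with an adjusted p of 0.042, again inside the fold limit, and limma voom gave -0.89 with an adjusted p of 0.138. With 1 liver left out at a time, the edgeR value lay between -1.05 and -0.72.

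Pdgfrb was then read in the livers given CORT with αACBP, where it reached 14.6, 21.4, 17.97, 9.99 and 15.3 CPM. These values, with a mean of 15.9 ± 4.24 CPM, lay mostly above those of Isotype + CORT, and 1 liver at 9.99 CPM fell inside that group's range. The log2 fold change of αACBP over isotype under CORT was 1.01 (SE 0.28, 95% interval 0.43 to 1.58), and its adjusted p of 0.0765 in edgeR's quasi-likelihood test missed the limit. DESeq2's Wald test gave 0.99 with an adjusted p of 0.0392, inside the fold limit, and limma voom gave 0.98 with an adjusted p of 0.188. With the GC correction the edgeR value was 0.84 (SE 0.28, adjusted p = 0.202 in edgeR). Without CORT, αACBP + Vehicle livers had 14.1 ± 4.28 CPM (SD, n = 5), and αACBP differed from isotype by a log2 fold change of -0.08 (95% interval -0.65 to 0.48). The interaction of both treatments was 1.09 on the log2 scale (SE 0.39, adjusted p = 0.26 in edgeR). The comparisons of Isotype + CORT with its vehicle and with αACBP + CORT share the same 5 Isotype + CORT livers.

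Markers of other liver cells moved beside Pdgfrb. Of 6 Kupffer cell markers, all present in every group, 5 were called lower with CORT under isotype and 2, Clec4f and Csf1r, were called higher with αACBP under CORT. Their median log2 fold changes were -1.21 and 1.02. The calls with CORT were each lost on leaving out any of 3 to 8 of the 10 livers compared, and under 1 to 3 of 11 other alternatives. Among these losses were Clec4f and Timd4 with limma voom (-0.96 and -1.77, adjusted p = 0.0101 and 0.084) and Clec4f and Csf1r with the GC correction (-0.98 and -0.94). The call of Csf1r with αACBP was lost without Isotype + CORT liver 2, at a log2 fold change of 0.92, and with the GC correction, at 0.94. It was also lost in the fit of the groups compared alone. Summed over the list, Kupffer markers had medians of 485 CPM (307 to 511) with Isotype + Vehicle, 173 CPM (110 to 341) with Isotype + CORT, 516 CPM (424 to 725) with αACBP + Vehicle and 530 CPM (385 to 549) with αACBP + CORT. Leukocyte markers were also lowest with Isotype + CORT, with summed medians of 96.6, 36.0, 95.8 and 81.8 CPM, and 3 of 7, Ptprc, Cd52 and Itgal, were called lower with CORT under isotype. With αACBP under CORT, Ptprc and Itgal were called higher, by 1.18 (adjusted p = 0.0173) and 1.26 (adjusted p = 0.0277) on the log2 scale in edgeR. Both calls were lost with limma voom and in the fit of the groups compared alone, that of Itgal also with the GC correction (1.13, adjusted p = 0.0714 in edgeR), and on leaving out any of 4 livers for Ptprc and any of 7 for Itgal. Of 6 sinusoidal endothelial markers 0 were called in either comparison by edgeR, with 0 at an unadjusted p of 0.05. The part of these cell types in the Pdgfrb values was not tested.

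**Figure D2:**
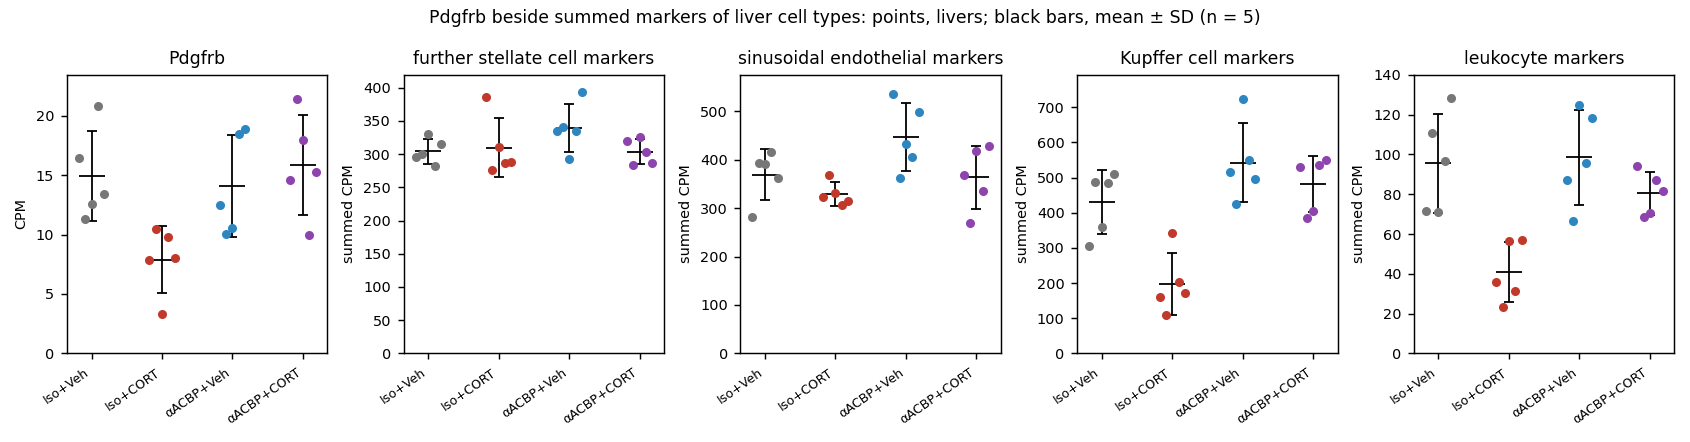
Pdgfrb in CPM and the summed CPM of 4 marker lists in each liver by group, with bars for mean ± SD (n = 5). Pdgfrb, Kupffer cell and leukocyte markers were lowest with Isotype + CORT. The sums of the further stellate cell markers, in which Angptl6 and Vipr1 were the most abundant genes, had medians from 288 CPM with Isotype + CORT to 335 CPM with αACBP + Vehicle.

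The other members linked to activation showed no call with CORT. Tgfb1, the ligand that drives matrix production and that Kupffer cells also make, had 17.04 ± 5.78 CPM with Isotype + Vehicle and 11.5 ± 4.56 CPM with Isotype + CORT (SD, n = 5). The groups overlapped, with 12.95, 21.2, 13.3, 12.7 and 25.2 CPM against 11.6, 10.01, 14.5, 4.82 and 16.8 CPM, and the log2 fold change of -0.56 (SE 0.27, 95% interval -1.10 to -0.02) had an adjusted p of 0.298 in edgeR's quasi-likelihood test. Tgfb1 with αACBP + Vehicle (15.6 ± 2.02 CPM) and αACBP + CORT (14.5 ± 3.37 CPM) lay within the range of Isotype + Vehicle but for the lowest αACBP + CORT liver, at 12.1 CPM.

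Acta2 varied more between livers than between groups. Its levels were 4.88, 11.6, 7.71, 15.9 and 11.2 CPM with Isotype + Vehicle and 16.4, 2.55, 9.40, 0 and 7.80 CPM with Isotype + CORT. With αACBP + Vehicle they were 5.08, 2.998, 7.36, 6.55 and 11.3 CPM, and with αACBP + CORT 7.59, 1.42, 3.90, 4.97 and 2.97 CPM. All 4 groups overlapped. Isotype + CORT held both the highest and the lowest liver, and the biological coefficient of variation of Acta2 was 75.9%, beside 40.2% for genes of its level. The lowest mean, 4.17 ± 2.31 CPM with αACBP + CORT, differed from Isotype + Vehicle by a log2 fold change of -1.30 (SE 0.71, 95% interval -2.79 to 0.19, adjusted p = 0.758 in edgeR). In the annotation, 9.33% of the exon bases of Acta2 (chr19:34217737-34232990, minus strand) lie opposite Stambpl1, and whether the counting used strand is not given in the sources used here.

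Timp1, an inhibitor of matrix metalloproteinases, and Lox, which cross-links collagen and elastin, were too low to compare. Timp1 was at 0 in 4, 4, 2 and 3 of 5 livers in the isotype groups with vehicle and with CORT and the αACBP groups with vehicle and with CORT, and its highest liver had 2.22 CPM with αACBP + CORT. Lox was at 0 in 1, 1, 4 and 2 of 5 livers in the same order, with a highest liver of 1.64 CPM in Isotype + CORT. Their 95% intervals were wide, for Timp1 from -0.08 to 8.10 and for Lox from -6.18 to 0.46 log2 units for αACBP against isotype under vehicle. Their biological coefficients of variation were 211% and 145%, and no difference of these genes could be read.

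**Figure D3:**
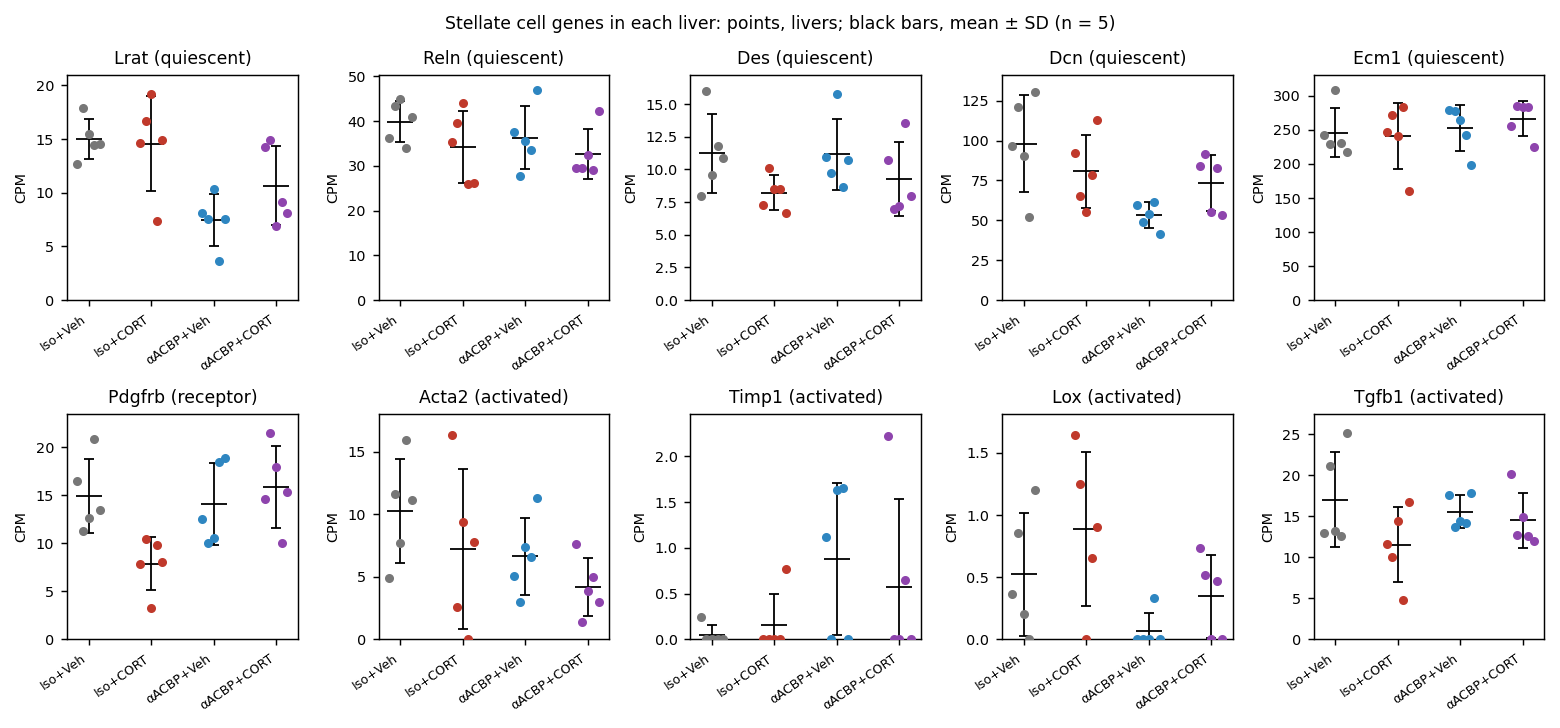
CPM of each of the 10 genes in every liver, with a point per liver and bars for mean ± SD (n = 5), by group. Lrat was lower in all 5 αACBP + Vehicle livers than in the 5 Isotype + Vehicle livers, Pdgfrb was lower in all 5 Isotype + CORT livers than in the 5 Isotype + Vehicle livers, and Timp1 and Lox had livers at 0 in every group.

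αACBP against isotype under vehicle asks what the antibody does without CORT. Here 1 of 10 members passed both limits in edgeR's quasi-likelihood test, where 1.3% of all genes did, and 8 members were lower, as 51.2% of all genes were. At an unadjusted p of 0.05, Lrat and Dcn fell below the limit, 2 of 10, where 20.6% of all genes did. The median over the members was -0.13 on the log2 scale, beside -0.02 over all genes.

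Lrat was the member that passed. It had 12.7, 17.9, 15.4, 14.4 and 14.6 CPM with Isotype + Vehicle, and 8.15, 7.55, 10.3, 3.63 and 7.53 CPM with αACBP + Vehicle. No αACBP liver reached an isotype liver, a separation in this direction found for 3.63% of all genes. The means of 15.01 ± 1.91 and 7.44 ± 2.41 CPM (SD, n = 5) gave a log2 fold change of -1.01 (SE 0.28, 95% interval -1.59 to -0.44, adjusted p = 0.0332 in edgeR). DESeq2's Wald test gave -1.002 (adjusted p = 0.012) and limma voom gave -1.21 (adjusted p = 0.0128).

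The call of Lrat lay close to both limits. It was lost with the GC correction, where the log2 fold change was -0.79 (SE 0.28, adjusted p = 0.124 in edgeR), and Lrat has a GC content of 42%, at percentile 11.9 of the genes. It was also lost when any of 8 of the 10 livers was left out, all but Isotype + Vehicle liver 4 and αACBP + Vehicle liver 3, with values from -1.16 to -0.84 and adjusted p from 0.0262 to 0.0881. Under CORT, Lrat had 14.6, 16.7, 19.2, 7.37 and 14.95 CPM with isotype and 14.2, 14.9, 6.89, 9.17 and 8.11 CPM with αACBP. These groups overlapped, with a log2 fold change of -0.45 (SE 0.28, 95% interval -1.02 to 0.11, adjusted p = 0.556 in edgeR). The interaction for Lrat was 0.56 (SE 0.39, adjusted p = 0.683 in edgeR), so the effect of the antibody with and without CORT was not shown to differ.

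Dcn (chr10:97315275-97358155, plus strand) was lower beside Lrat. Isotype + Vehicle livers had 96.7, 120.8, 90.5, 52.2 and 130.2 CPM and αACBP + Vehicle livers had 59.6, 49.3, 53.9, 61.4 and 41.3 CPM. Isotype + Vehicle liver 4, at 52.2 CPM, fell inside the αACBP range, and the other 4 lay above it. The means were 98.1 ± 30.5 and 53.1 ± 8.14 CPM, and the log2 fold change of -0.89 (SE 0.22, adjusted p = 0.0208 in edgeR) passed the limit on p and not the limit on fold. Without Isotype + Vehicle liver 4 it was -1.05 (adjusted p = 0.00495 in edgeR), which passed both. With the GC correction it was -0.60 (SE 0.20, adjusted p = 0.106 in edgeR), and Dcn, with a GC content of 39.8%, lay at percentile 5.24 of the genes. Over all genes, the tenth with the lowest GC content had a median log2 fold change of -0.26 in this comparison and the tenth with the highest had 0.30.

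Reln, Des and Ecm1 did not follow. Reln, a secreted glycoprotein that marks stellate cells in liver, had 39.9, 34.2, 36.3 and 32.6 CPM as means of the isotype groups with vehicle and with CORT and then of the αACBP groups with vehicle and with CORT. Des, the intermediate filament desmin, had means of 11.2, 8.21, 11.2 and 9.28 CPM in the same order. Ecm1 had means of 246, 241, 253 and 267 CPM. For αACBP against isotype under vehicle the 95% intervals of the log2 fold change were -0.50 to 0.23 for Reln, -0.53 to 0.51 for Des and -0.29 to 0.37 for Ecm1, so a log2 fold change of 1 in either direction lay outside each of them.

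**Figure D4:**
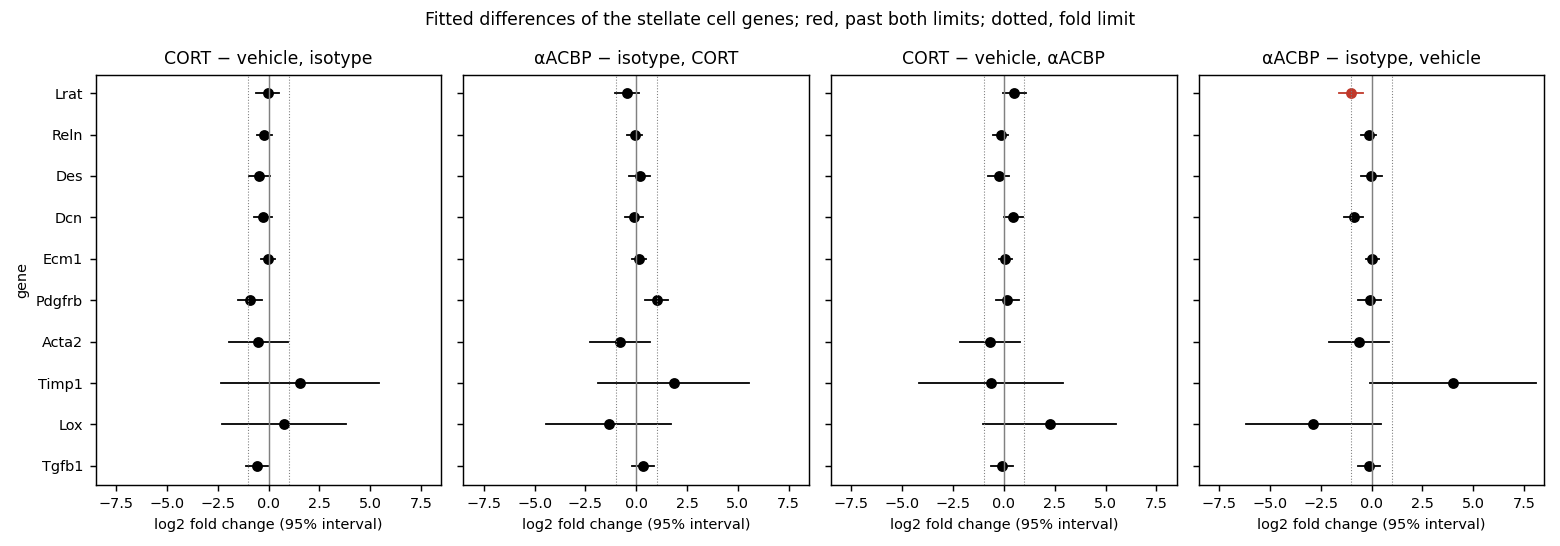
Fitted log2 fold change of each gene with its 95% interval in the 4 comparisons that differ by 1 treatment, with dotted lines at the fold limit and red for a gene past both limits. Lrat with αACBP under vehicle, at -1.01, was past both limits, and the intervals of Timp1 and Lox were the widest.

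The remaining comparisons held few differences. αACBP against isotype under CORT called 0 of 10 members in edgeR, where 0.597% of all genes were called, and DESeq2's Wald test and limma voom called 0. At an unadjusted p of 0.05, 1 member, Pdgfrb, fell below the limit, where 12.5% of all genes did. CORT against vehicle under αACBP called 0 of 10 in edgeR, DESeq2 and voom, where edgeR called 0.212% of all genes. Dcn was the 1 member below an unadjusted p of 0.05 there, where 12.7% of all genes were, and its levels of 84.2, 91.5, 55.5, 83.0 and 53.7 CPM with αACBP + CORT overlapped those with αACBP + Vehicle (log2 fold change 0.47, SE 0.22, adjusted p = 0.363 in edgeR). αACBP + CORT against Isotype + Vehicle called 0 of 10 by all 3 tools, where edgeR called 0.0684% of all genes, and 0 members had an unadjusted p of at most 0.05, where 7.59% of genes did. The interaction called 0 of 10 by all 3 tools, where edgeR called 0.143% of all genes, and 2 members, Pdgfrb and Dcn, had an unadjusted p of at most 0.05, where 10.6% of genes did. DESeq2 gave no adjusted p for Timp1 in these comparisons, and for Lox it gave one with αACBP under CORT alone.

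Quiescent and activated markers were set against each other in each liver as the mean log2(CPM + 0.1) of the 5 quiescent genes minus that of the 4 activated genes. This balance was 4.64 ± 0.37 with Isotype + Vehicle, 4.74 ± 1.09 with Isotype + CORT, 4.35 ± 0.74 with αACBP + Vehicle and 4.60 ± 0.91 with αACBP + CORT (SD, n = 5). The ranges of all groups overlapped, and no test was made of a score over chosen genes. The quiescent side alone was highest with Isotype + Vehicle (5.43 ± 0.19) and lowest with αACBP + Vehicle (5.03 ± 0.18). Neither side was corrected for GC content. Between these 2 groups Lrat and Dcn had log2 fold changes of -1.01 and -0.89. Those of Reln, Des and Ecm1 were -0.14, -0.009 and 0.04. The activated side varied more between livers, with SDs of 0.45, 1.13, 0.72 and 1.04 in the order of the groups above, and Timp1 and Lox, with their livers at 0, entered it with equal weight.

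**Figure D5:**
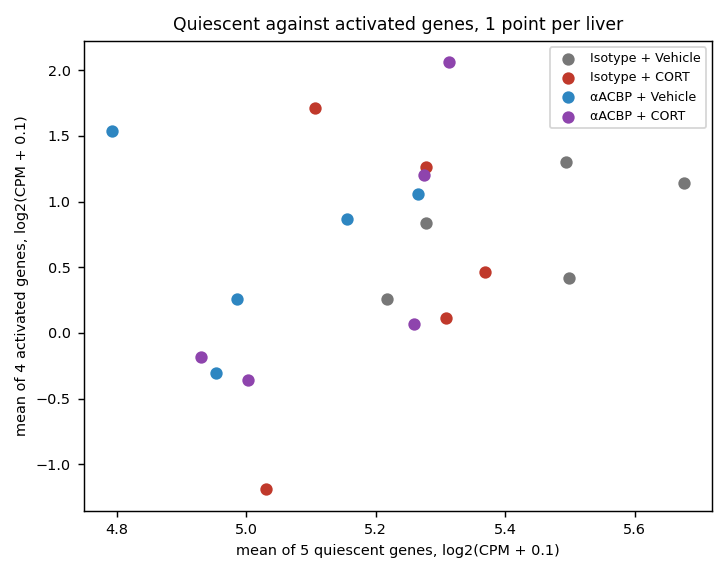
Mean log2(CPM + 0.1) of the 5 quiescent genes (horizontal) against that of the 4 activated genes (vertical), 1 point per liver, coloured by group. The groups overlapped on the vertical axis. On the horizontal axis, without GC correction, Isotype + Vehicle had the highest mean, 5.43, and αACBP + Vehicle the lowest, 5.03.

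Further markers of stellate cells gave a wider view of the same cells. Of 17 such genes read and tested, 0 were called with CORT under isotype in edgeR, with 4 at an unadjusted p of 0.05, and the median log2 fold change was -0.08. The 2 most abundant of them, Angptl6 (mean 103 CPM) and Vipr1 (mean 40.2 CPM), had log2 fold changes of 0.24 and -0.08 in this comparison. In the other comparisons between groups 0 of the 17 were called by edgeR, with 1 to 4 at an unadjusted p of 0.05. Summed over the list, their medians were 299.7 CPM (282 to 329.5) with Isotype + Vehicle, 288 CPM (276 to 385) with Isotype + CORT, 335 CPM (292.5 to 393) with αACBP + Vehicle and 303 CPM (283 to 326) with αACBP + CORT, with overlap between all groups.

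Genes of retinoid storage and signalling were read beside Lrat. Of 13 read and tested, Rdh11, a retinal reductase, was called lower with CORT under isotype, and Aldh1a1, which makes retinoic acid from retinal, was called lower with αACBP under vehicle, where the list had 2 genes higher, 11 lower and a median of -0.61. Aldh1a1 had 591 ± 146 CPM with Isotype + Vehicle and 273 ± 67.3 CPM with αACBP + Vehicle (log2 fold change -1.12, adjusted p = 0.027 in edgeR), and with the GC correction -0.88 (adjusted p = 0.0817 in edgeR). Its call was lost on leaving out any of 5 of the 10 livers compared, with values from -1.26 to -0.999. Rdh11 had 110 ± 20.8 CPM with Isotype + Vehicle, 48.2 ± 20.1 CPM with Isotype + CORT, 58.9 ± 12.2 CPM with αACBP + Vehicle and 53.2 ± 21.2 CPM with αACBP + CORT. Its log2 fold change with CORT under isotype was -1.19 (adjusted p = 0.0118 in edgeR). With αACBP under vehicle it was -0.90 (adjusted p = 0.0453 in edgeR), below the fold limit and without GC correction. With CORT under αACBP it was -0.15 (adjusted p = 0.88 in edgeR). Rbp4, the plasma retinol carrier that hepatocytes secrete, was the most abundant of the list at a mean of 2883 CPM and was not called. Beside the list median of -0.61 with αACBP under vehicle, 5 hepatocyte markers had a median of -0.54, with 3 lower and 2 higher. The part of hepatocyte RNA in the retinoid values was not tested.

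Matrix genes of myofibroblasts were lower with CORT more often than higher. Under isotype 24 of 27 tested had a negative log2 fold change, 3 had a positive one and the median was -0.56, and 3 were called lower in edgeR. Col3a1, a fibrillar collagen, had 29.2, 49.4, 24.6, 28.7 and 71.1 CPM with Isotype + Vehicle and 23.9, 13.5, 17.04, 12.7 and 27.1 CPM with Isotype + CORT. Of the Isotype + CORT livers 1, at 27.1 CPM, lay inside the vehicle range, and the log2 fold change was -1.11 (adjusted p = 0.0163 in edgeR). Without Isotype + Vehicle liver 5 it was -0.82 (adjusted p = 0.0881) and without liver 2 it was -1.04 (adjusted p = 0.0520), both no longer past the limits in edgeR. Col3a1 was as low in both αACBP groups, at 20.7 ± 3.85 CPM with vehicle and 21.1 ± 5.28 CPM with CORT. αACBP against isotype under vehicle gave -0.97 (adjusted p = 0.0299 in edgeR), below the fold limit and without GC correction. CORT under αACBP gave 0.03. The Isotype + Vehicle livers at 49.4 and 71.1 CPM lay above every liver of the other groups. The rest of that group, from 24.6 to 29.2 CPM, lay below the highest αACBP + CORT liver, at 30.5 CPM. Eln, which encodes elastin, fell by 1.12 on the log2 scale (adjusted p = 0.0378 in edgeR), a call lost on leaving out any of 6 of the 10 livers, with the replicate block and in the fit of the groups compared alone, where that of Col3a1 was lost too. In the same comparison 6 of 6 Kupffer cell markers and 7 of 7 leukocyte markers had negative log2 fold changes, with medians of -1.21 and -1.32, and their part in the matrix values was not tested.

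Loxl4, a relative of Lox that cross-links collagen, was called in both directions. It had 12.7, 9.36, 8.78, 12.6 and 8.63 CPM with Isotype + Vehicle and 1.78, 1.35, 3.95, 3.19 and 0.193 CPM with Isotype + CORT. With αACBP + Vehicle it had 2.40, 5.52, 0.905, 2.86 and 6.42 CPM and with αACBP + CORT 13.2, 16.1, 6.66, 9.76 and 3.404 CPM. All Isotype + CORT livers lay below all Isotype + Vehicle livers (log2 fold change -2.31, adjusted p = 0.0143 in edgeR), and αACBP + CORT livers lay mostly above Isotype + CORT (log2 fold change 2.22, adjusted p = 0.0369 in edgeR). The first call was lost with limma voom (-2.34, adjusted p = 0.0589). The second was lost with limma voom (2.32, adjusted p = 0.127), with the GC correction (2.10, adjusted p = 0.0643 in edgeR), with the replicate block, in the fit of the groups compared alone, and on leaving out any of 7 of the 10 livers compared. Beyond Col3a1, Eln and Loxl4, 0 matrix genes were called by edgeR in any comparison, and with αACBP under vehicle 21 of the 27 had a negative log2 fold change, with a median of -0.51 and 8 at an unadjusted p of 0.05.

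Of 21 genes of the TGFβ pathway, 14 were lower and 7 higher with CORT under isotype, with a median of -0.17 and 1 call in edgeR. The call was Ltbp4, which binds latent TGFβ in the matrix, at 36.7 ± 3.58 CPM with Isotype + Vehicle and 16.6 ± 3.59 CPM with Isotype + CORT (log2 fold change -1.15, adjusted p = 0.00098 in edgeR). It remained past both limits with each of the 20 livers left out. Under αACBP, Ltbp4 had 39.8 ± 9.17 CPM with vehicle and 20.7 ± 4.17 CPM with CORT, a log2 fold change of -0.94 (adjusted p = 0.0291 in edgeR), below the fold limit, and the interaction was 0.21 (adjusted p = 0.87 in edgeR). The 5 PDGF ligands and other receptor genes tested held 0 calls in edgeR in any comparison, with at most 1 at an unadjusted p of 0.05. The most abundant of them, Pdgfa, had 7.57, 10.5, 6.96 and 6.47 CPM as group means in the order given for Reln.

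Cells that share genes with stellate cells were also read. Of 7 portal fibroblast markers tested, Eln and Gli1 were called lower with CORT under isotype. Gli1, a transcription factor of the hedgehog pathway, was at 0 counts in all 5 Isotype + CORT livers. Its means were 1.19 CPM (0.355 to 2.94) with Isotype + Vehicle, 1.335 CPM (0.670 to 1.87) with αACBP + Vehicle and 1.40 CPM (0.940 to 1.72) with αACBP + CORT. The call with CORT had an adjusted p of 0.00216 in edgeR. With αACBP under CORT it was called higher (adjusted p = 0.0055 in edgeR), a call lost in the fit of the groups compared alone. By group means, against the floor of 3 counts per library, it was at least 6.58-fold lower with Isotype + CORT than with Isotype + Vehicle. Against αACBP + CORT it was at least 7.74-fold lower. Without the highest liver of Isotype + Vehicle the first bound was 4.16-fold. Markers of vascular smooth muscle (6 genes), mesothelium (5), bile ducts (5) and hepatocytes (5) held 0 calls in edgeR, with at most 3 genes of a list at an unadjusted p of 0.05 in any comparison. Of 4 adipocyte markers 1, Cidec, was tested and was not called, and Adipoq was at most 1.22 CPM in every liver and was not tested.

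Over the 20 livers, the genes whose log2(CPM + 0.1) followed a member most closely were read from 13261 genes, as a description. Dcn had the closest companions, Laptm4a and Copb2, both with Pearson r = 0.91. Pdgfrb was followed most closely by Coro2a (r = 0.82), Lrat by Wdr77 (r = 0.79), Acta2 by Serpina3f (r = 0.88), Tgfb1 by Siglece (r = 0.85) and Lox by Sdc2 (r = 0.88). By rank, Spearman's rho was 0.90 and 0.93 for the pairs of Dcn and 0.87 for that of Lox. It was 0.74 for Pdgfrb, 0.72 for Lrat, 0.66 for Tgfb1 and 0.60 for Acta2, which had 1 liver at 0. The Pearson coefficients of Acta2 and Tgfb1 thus held less well by rank. These are the highest of many coefficients, over livers that share treatments, depth and base composition.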

How the data were processed

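RNA of 20 mouse livers was sequenced as read pairs. The authors aligned the reads with HISAT2 and counted them on genes with HTSeq in union mode. Their methods state that non-unique features were included. They deposited raw counts per gene, not normalized. Per the labels the build was mm10, whereas the methods name GRCm39. The table gives identifiers and symbols without coordinates, so gene positions were taken by identifier from GENCODE M39 on GRCm39 (91.4% of identifiers found) and promoters from RefSeq on GRCm38.p6. The strand setting is not given in the sources used here. A median of 38.8% of each library lay on genes and 43.7% on no feature. The 5 lines that name no gene, and 0 unmatched columns, were left out.

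The counts were tested with edgeR 4.0.16 in R 4.3.3, by the quasi-likelihood test with TMM and filterByExpr (16071 genes tested), in 1 model of the 4 groups without covariates. P-values were adjusted by Benjamini-Hochberg over these genes, and a gene was called at an adjusted p of at most 0.05 and a log2 fold change of 1 or more in either direction. CPM are TMM-normalized. Unadjusted limits, other filters and size factors, DESeq2 1.42.0, limma voom 3.58.1 with quality weights, a replicate block, leaving out each liver and a GC correction were alternatives. The fit was tested on simulated data. Replicate numbers come from the sample titles. Correlations of deviations between livers with the same number lay between -0.0983 and 0.0944, and 3 of 20 livers correlated best with their own number, so the numbers were not used as pairs.

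The members, gene lists and tests were chosen with earlier results of these data known. Named were all members, list genes called in a comparison between 2 groups (at most 5 per list and comparison), the 2 most abundant genes of a list, and the genes most like each member. Ccn2 was matched as Ctgf. A gene planned for the lists is not reported here, and list counts and sums leave it out. All 10 members passed the filter. Python 3.11.15 was used for annotation and plots.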

Additional observations from a re-analysis of the deposited data

Results flagged for a closer look

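Within a group of 5 livers, 12 of 192 combinations of a gene and a group held 1 liver far from the other 4, by the gap to its neighbour relative to the range. The limit flags about 1 in 20 groups of normally distributed values, a rate that need not hold for CPM with livers at 0. A single liver above 4 livers at 0 is always flagged. Of the members, Reln was flagged with αACBP + CORT, at 42.3 CPM against at most 32.4 in the others. Ecm1 was flagged with Isotype + Vehicle, at 308 CPM against at most 242. Single livers above 4 livers at 0 were Timp1 with Isotype + Vehicle (0.241 CPM), Timp1 with Isotype + CORT (0.773 CPM) and Lox with αACBP + Vehicle (0.330 CPM). Of the list genes, single high livers were seen with αACBP + CORT for Col3a1 (30.5 CPM) and Adipoq (0.632 CPM). Mmp14 stood apart with Isotype + Vehicle (136.9 CPM), Stab1 with αACBP + Vehicle (236 CPM), and Aldh1a1 (1697 CPM) and Thy1 (3.15 CPM) with Isotype + CORT. Vsig4 had a single low liver with Isotype + CORT, at 4.25 CPM.

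The effect of CORT differed between the antibodies for 2 list genes by edgeR's interaction term. Loxl4 had an interaction of 3.74 on the log2 scale (adjusted p = 0.0312 in edgeR), and Gli1 had 7.43 (adjusted p = 0.048 in edgeR), a fitted value that depends on the prior count because all 5 Isotype + CORT livers were at 0. The first was lost on leaving out any of 10 of 20 livers and with the replicate block. The call of Gli1 was lost on leaving out any of 13, with limma voom (4.62, adjusted p = 0.0898) and with the replicate block (7.30, adjusted p = 0.0839 in edgeR), and DESeq2 gave it no adjusted p.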

How the results depend on the processing

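Under the alternatives run, the number of members called stayed at 0 for CORT against vehicle under either antibody and for αACBP + CORT against Isotype + Vehicle. It became 1 (Pdgfrb) with unadjusted p for αACBP against isotype under CORT, and 1 (Pdgfrb) with unadjusted p for the interaction. For αACBP against isotype under vehicle it was 0 with at least 10 counts in every liver, which left 7 members tested and gave Lrat -0.995, 0 with the GC correction, 2 without a fold limit, and 0 to 2 with 1 liver left out. The GC correction was chosen after seeing the data. With the replicate number as a block the call of Lrat stayed, at -1.07, and no call of a member changed, while Eln with CORT under isotype, Loxl4 with αACBP under CORT and the interactions of Loxl4 and Gli1 lost theirs. Genes called in all ranged, over these settings, from 231 to 890 for CORT under isotype (main 312), 27 to 520 for αACBP under CORT (96), 24 to 395 for CORT under αACBP (34), 137 to 826 for αACBP under vehicle (209), 10 to 223 for both treatments (11) and 20 to 791 for the interaction (23). With 1 liver left out these counts were 205 to 421, 52 to 191, 5 to 153, 87 to 343, 1 to 23 and 6 to 101. A pseudocount of 0.5 CPM lowered the balance to 3.85 with Isotype + Vehicle and 3.55 with αACBP + Vehicle, and counting Pdgfrb as activated lowered it to 4.03 with Isotype + Vehicle.

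Reversals of log2 fold changes concerned values whose 95% interval held 0. With voom, for CORT under isotype Ecm1 became 0.017 and Lox -0.16, for αACBP under CORT Dcn became 0.010 and Acta2 1.66, and the interaction of Acta2 became 2.33. With the replicate block, Lox became -0.12 for CORT under isotype, Des 0.0095 for αACBP under vehicle and the interaction of Acta2 0.13. Des under vehicle also became 0.000391 with DESeq2 size factors, 0.000421 with DESeq2's Wald test and 0.00662 with at least 10 counts in every liver. With the GC correction, Ecm1 became 0.037 for CORT under isotype, -0.043 for αACBP under CORT, -0.12 for αACBP under vehicle and -0.0056 for both treatments, Des became -0.029 and Dcn 0.023 for αACBP under CORT, and the interaction of Reln became -0.037.

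With 1 liver left out, the ranges that crossed 0 were for CORT under isotype Lrat -0.16 to 0.12, Ecm1 -0.10 to 0.083 and Timp1 -2.94 to 4.47, for αACBP under CORT Dcn -0.24 to 0.016 and Reln -0.18 to 0.038, for αACBP under vehicle Des -0.17 to 0.15, Ecm1 -0.0063 to 0.13, Pdgfrb -0.22 to 0.065 and Tgfb1 -0.22 to 0.049, for both treatments Pdgfrb -0.046 to 0.24, and for the interaction Acta2 -0.49 to 0.38, Ecm1 -0.0043 to 0.18, Reln -0.044 to 0.20 and Timp1 -5.08 to 2.32. The cause of these changes was not tested. Timp1 and Lox had at most 33 counts in a liver.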
